A study of Mus musculus with 7 samples.

Results

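The genes described are the 2 corticosteroid receptors of the mouse, Nr3c1 (the glucocorticoid receptor) and Nr3c2 (the mineralocorticoid receptor), and 8 genes known to be induced through them: Fkbp5, Sgk1, Zbtb16, Tsc22d3, Per1, Pdk4, Cdkn1a and Errfi1. They were chosen by symbol, and all 10 were found among the 17732 gene rows of the authors' deposited table. The RNA came from wild-type male mice of the inbred strain 129SvEv, from the medial prefrontal cortex, taken after the animals had retrieved a remote memory. A group labelled CFC held 3 libraries and a group labelled SC held 4. Neither name is spelled out in the labels, ages are not given in the sources used here, and nothing says whether libraries came from separate animals. By its title, the series is about how parvalbumin interneurons and oligodendrocytes of the infralimbic cortex interact in extracellular plasticity that follows safety learning. The steroid-related genes were compared between the groups as part of the same table, and no stated question of the study concerns them.

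The table gives for each gene a mean normalized count over the libraries, a log2 fold change between the groups, its standard error and a Wald test with a p-value. It names no numerator for the fold change, so a difference is called positive or negative after its deposited sign, and neither group is said to be higher. No value of a single library was used here, and the depth of each library is unknown. The markers of excitatory cortical neurons were abundant, with mean normalized counts of 34713 for Slc17a7 and 4331 for Tbr1 in the authors' deposited table.

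Corticosterone, the main glucocorticoid of mice, enters cells and binds both receptors, of which the mineralocorticoid receptor has the higher affinity. The bound receptor leaves its chaperone complex, moves to the nucleus and binds DNA, where it raises or lowers the transcription of its targets. In the forebrain these receptors are known for their part in the stress response, its negative feedback and the storage of emotional memories.

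The classical DNA element of both receptors is an inverted repeat, the hexamer AGAACA followed after a spacer of any 3 letters by TGTTCT, and it is shown because it links the receptors to the genes they induce. RefSeq promoter windows (build GRCm38.p6) were searched over the 250 bases before each gene start. The element equals its own reverse complement, so a match on either strand is the same match, and the hexamer was also searched alone, as TGTTCT and as AGAACA. Windows were found for 8 of the 10 genes, 18 windows in all, and Nr3c1 and Zbtb16 had none. The complete element was present in 1 gene, Sgk1, in the window of the start at base 21993890 of chromosome 10. Of all 32851 windows, 3 held it (0.00913%), those of Sgk1, Acnat2 and Gm35041. The 250 bases before that Sgk1 start are chr10:21993640-21993889, plus strand, with the element in capitals:
Sgk1: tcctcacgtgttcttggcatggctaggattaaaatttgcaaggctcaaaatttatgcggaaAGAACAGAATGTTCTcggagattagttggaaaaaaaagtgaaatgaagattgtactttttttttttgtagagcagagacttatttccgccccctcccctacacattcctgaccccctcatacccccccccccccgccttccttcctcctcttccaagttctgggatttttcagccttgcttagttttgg

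In GENCODE M21 the element lies at chr10:21993701-21993715, in no annotated exon of Sgk1. It begins 189 bases before the start of the transcript Sgk1-202 and 965 bases before that of Sgk1-201. Other transcripts, among them Sgk1-203 and Sgk1-204, start upstream of the element, which therefore lies after their starts. Another 5 Sgk1 windows held no complete element. The next best member match, counted over the 12 fixed letters of the element, was also at Sgk1, before the start at base 21986104. The best matches of Sgk1, Errfi1 (chromosome 4) and Fkbp5 (chromosome 17) are given to set a complete element beside partial ones, with matching letters in capitals and the others, spacer included, in lower case:
Sgk1 start at 21993890: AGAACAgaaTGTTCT
Sgk1 start at 21986104: AGAAgAttcTGaTCT
Errfi1 start at 150855070: AaAACtcggTGTcCT
Fkbp5 start at 28486149: tGAAgAggcgGagaT
These have 0, 2, 3 and 6 mismatches. No GENCODE M21 transcript starts at the Sgk1 base 21986104 or at the Errfi1 base 150855070, and both lie inside the annotated gene. The other Errfi1 window, before the start at base 150853796, had 4 mismatches. A match with at most 2 mismatches was present in 1.56% of all windows, with at most 3 in 12.3%, with at most 4 in 51.4% and with at most 5 in 91.8%. The members other than Sgk1 and Errfi1 had 4 to 6 mismatches at best, as most windows did. These shares are per window, and a member with several windows has more opportunities for a good match. Tsc22d3 held a hexamer alone, 185 bases before its RefSeq start at base 140600522 of chromosome X. No GENCODE M21 transcript of Tsc22d3 starts at that base, and an exon of Tsc22d3-203 reaches into the window. The surroundings of the hexamer are chrX:140600682-140600727, minus strand, with the hexamer in capitals:
Tsc22d3: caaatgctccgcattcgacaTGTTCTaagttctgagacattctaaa
A hexamer on either strand was present in 4 of the 18 member windows, 3 of Sgk1 and 1 of Tsc22d3, and in 16.1% of all windows. No match elsewhere says only that these letters are not in the window searched.

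**Figure D1:**
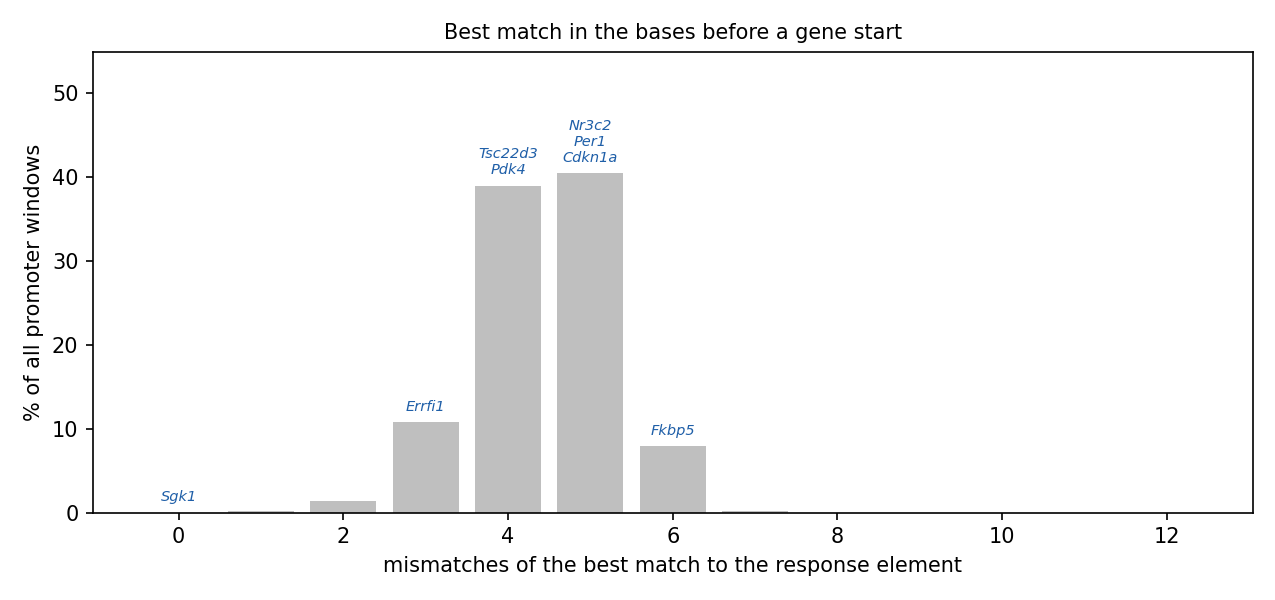
Bars give the percentage of all 32851 promoter windows (vertical axis) by the number of mismatches of their best match to the response element (horizontal axis), and each member is named above the bar of its best window. Sgk1 stands at 0 mismatches, Errfi1 at 3, and the other members at 4 to 6, where most windows lie. The bars count single windows, so a member with several windows has more opportunities for a low number.

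None of the 10 genes differed between the groups at an adjusted p under 0.05 in the authors' deposited table, in which 0.513% of the 13060 genes with an adjusted p passed. Most of the induced genes nevertheless had small differences of the same sign: 6 of the 8 were positive and 2 negative, and their median log2 fold change was 0.23. Over all 13060 genes, 49.4% were positive and the median was -0.0017. The receptors were split, 1 positive and 1 negative. All 10 genes passed the authors' filter on the mean count, which kept genes of 34.9 or more. At an unadjusted p under 0.05 there were 3 of the 10 genes, Tsc22d3, Per1 and Zbtb16, all positive, by the Wald test of DESeq2. The background is 8.1% of all genes at that threshold and 4.56% on the positive side, and 4.43% of the 7884 genes within the members' range of mean counts were positive and under it. With 10 genes that share their libraries, this count is a description.

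Nr3c1 (ENSMUSG00000024431, chromosome 18, bases 39410545 to 39519421 of GRCm38) had a mean normalized count of 2371 and a log2 fold change of -0.03 ± 0.06 (SE) in the authors' deposited table. Its adjusted p there was 0.999. The 95% interval computed from these values ran from -0.15 to 0.09, that is from 0.902-fold to 1.06-fold, so the glucocorticoid receptor's transcript was held within a narrow range around no difference. Nr3c2 (ENSMUSG00000031618, chromosome 8, bases 76899442 to 77245012) had a mean normalized count of 799 in the authors' deposited table. Its log2 fold change of 0.27 had an SE of 0.20 and an adjusted p of 0.901 in the authors' deposited table. The 95% interval, from -0.12 to 0.66, was wide, and it covers both no difference and a 1.59-fold one. Exons of Nr3c2 share 247 bases, 3.82% of its exon length, with Gm10649 on the opposite strand. Whether the counting used strand is not given in the sources used here. The 2 intervals overlap, and the difference between the receptors was not tested, since both estimates come from the same libraries.

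Among the induced genes, Tsc22d3 and Fkbp5 encode proteins that act within glucocorticoid signalling. Tsc22d3 (ENSMUSG00000031431, chromosome X, bases 140539528 to 140600659) encodes the glucocorticoid-induced leucine zipper GILZ, which carries part of the anti-inflammatory action of glucocorticoids. Its mean normalized count was 646 and its log2 fold change 0.29 ± 0.11 (SE), in the authors' deposited table. This was a 1.23-fold difference with a 95% interval from 1.05-fold to 1.42-fold. Its unadjusted p of 0.00778 was the smallest of the members, and its adjusted p was 0.328, in the authors' deposited table. In absolute Wald statistic, 2.56% of all genes lay beyond it. Fkbp5 (ENSMUSG00000024222, chromosome 17, bases 28399094 to 28517527) encodes the immunophilin FKBP51, a co-chaperone that lowers the receptor's affinity for the hormone and so closes a feedback loop within the cell. It had a mean normalized count of 468 and a log2 fold change of 0.23 ± 0.13 (SE) in the authors' deposited table. Its 95% interval ran from -0.02 to 0.48, with an adjusted p of 0.759 in the authors' deposited table.

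Per1 and Zbtb16 encode transcriptional regulators. Per1 (ENSMUSG00000020893, chromosome 11, bases 69095217 to 69109960), a repressor of the circadian clock that also responds to neuronal activity and to glucocorticoids, had a mean normalized count of 2378 in the authors' deposited table. Its log2 fold change was 0.23 ± 0.09 (SE), with an unadjusted p of 0.00945 and an adjusted p of 0.356 in the authors' deposited table. The 95% interval, from 1.04-fold to 1.32-fold, did not reach 1. Zbtb16 (ENSMUSG00000066687, chromosome 9, bases 48654297 to 48836222) encodes the zinc finger protein PLZF, and it had a mean normalized count of 1687 and a log2 fold change of 0.18 ± 0.08 (SE) in the authors' deposited table. Its unadjusted p was 0.0338 and its adjusted p 0.580 in the authors' deposited table. With an interval from 1.01-fold to 1.27-fold, Zbtb16 had the smallest positive difference of the members.

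The kinases Sgk1 and Pdk4 were positive without reaching an unadjusted p of 0.05. Sgk1 (ENSMUSG00000019970, chromosome 10, bases 21882184 to 21999903) encodes the serum- and glucocorticoid-regulated kinase, which acts on ion channels and transporters and in the brain is known in oligodendrocytes as well as neurons. Its mean normalized count was 875 and its log2 fold change 0.29 ± 0.19 (SE) in the authors' deposited table, where its adjusted p was 0.829. The fold change of Sgk1 equalled that of Tsc22d3 to 2 decimals, but its standard error was larger, and its 95% interval ran from -0.07 to 0.66. The promoter with the complete element belonged to a gene whose difference was not resolved. Pdk4 (ENSMUSG00000019577, chromosome 6, bases 5483351 to 5496309), which encodes a kinase that shuts down the pyruvate dehydrogenase complex, had a mean normalized count of 189, the lowest of the members, in the authors' deposited table. Its log2 fold change was 0.27 ± 0.14 (SE), with an adjusted p of 0.664 in the authors' deposited table. The lower bound of its 95% interval was -0.0040.

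The other two induced genes were negative. Cdkn1a (ENSMUSG00000023067, chromosome 17, bases 29090976 to 29100727) encodes p21, an inhibitor of cyclin-dependent kinases that is also a target of p53. It had a mean normalized count of 266 and a log2 fold change of -0.20 ± 0.12 (SE) in the authors' deposited table. Its adjusted p was 0.821 in the authors' deposited table, and its 95% interval ran from -0.45 to 0.04. Exons of Cdkn1a share 273 bases, 7.68% of its exon length, with AC167363.2 on the opposite strand. Errfi1 (ENSMUSG00000028967, chromosome 4, bases 150853919 to 150868892) encodes MIG6, an inhibitor of the epidermal growth factor receptor. Its mean normalized count was 501 and its log2 fold change -0.02 ± 0.09 (SE) in the authors' deposited table. With an interval from 0.873-fold to 1.12-fold and an adjusted p of 0.999 in the authors' deposited table, Errfi1 lay closest to 0 among the members. The 8 members other than Nr3c2 and Cdkn1a shared no exon base with another annotated gene.

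**Figure D2:**
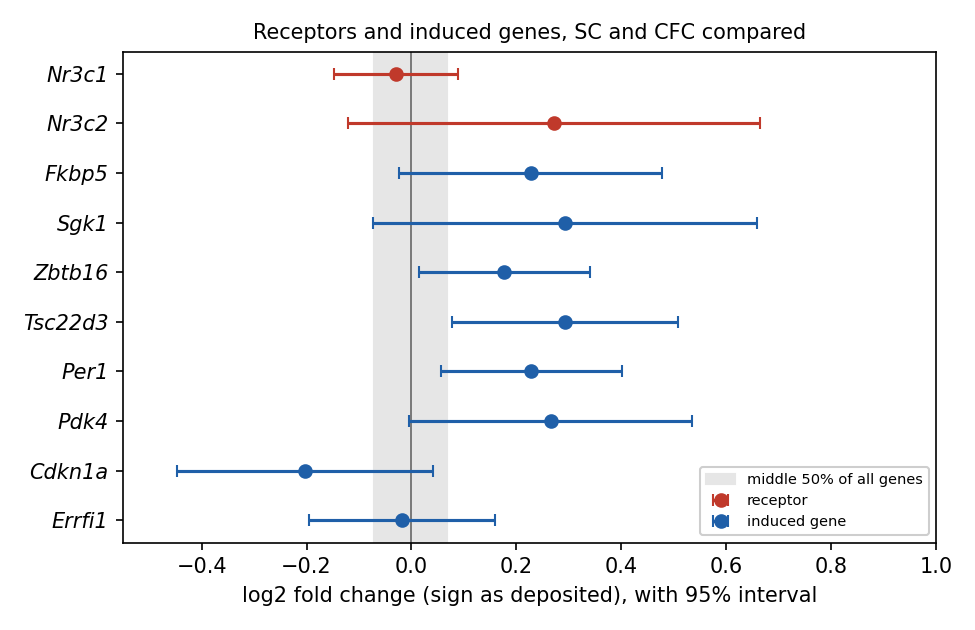
Points are the log2 fold changes of the 10 genes between SC and CFC, with the sign as deposited, bars are 95% intervals from the deposited standard errors, and the grey band holds the middle 50% of all genes with an adjusted p. Tsc22d3, Per1 and Zbtb16 have intervals that lie above 0, and the other 7 intervals include 0.

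Nr3c2 and Sgk1 had large errors for their abundance. A standard error reflects both the counts and the scatter of the libraries within a group, so each was divided by the median standard error of about 500 genes of similar mean count. The ratio was 2.47 for Nr3c2 and 2.35 for Sgk1, and only 1.43% and 1.65% of all genes had a higher one. For the other 8 genes it lay between 0.942 for Nr3c1 and 1.38 for Per1, where the 95th percentile of all genes was 1.29. Per1 and Fkbp5 (1.31) were also above that percentile. The median ratio of the induced members was 1.25, where that of all genes was 0.998 and the 75th percentile 1.06. A ratio above 1 stands for a larger estimated scatter within the groups than is usual at that abundance, and which libraries scattered was not analysed here. The 10 oligodendrocyte markers had a median ratio of 6.63. Ratios above that of Nr3c2 were also found for the astrocyte marker Gfap (5.66) and the activity-induced genes Arc (3.51) and Egr1 (3.03). The medians of the astrocyte and activity-induced lists were 1.27 and 1.34. The part of any of these genes in the errors of Sgk1 and Nr3c2 was not tested.

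**Figure D3:**
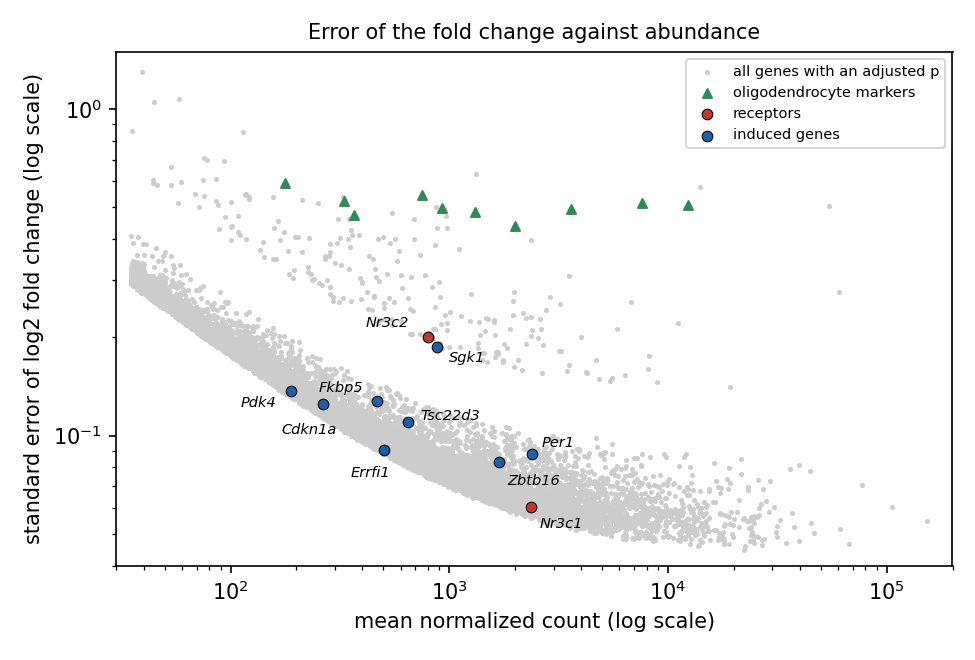
Each grey point is a gene with an adjusted p, placed by its mean normalized count and the standard error of its log2 fold change, both on log scales. Nr3c2 and Sgk1 lie above the main band of genes, Per1 and Fkbp5 near its upper edge, the other 6 members within it, and the oligodendrocyte markers lie far above it.

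A larger error raises the size of difference that a call needs. The called gene with the smallest absolute Wald statistic had 3.68, above the 2.66 of Tsc22d3 in the authors' deposited table, the highest of the members. At that statistic a measured difference would have had to reach 1.17-fold for Nr3c1, 1.24-fold for Zbtb16, 1.25-fold for Per1 and 1.32-fold for Tsc22d3. For Fkbp5 it was 1.39-fold, for Pdk4 1.42-fold, for Sgk1 1.61-fold and for Nr3c2 1.67-fold. The highest upper bound among the 10 intervals was 0.66, that of Nr3c2.

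Per kilobase of annotated exon, Per1 was the most abundant member, with 422 mean normalized counts per kilobase, above 85.4% of genes. Zbtb16 (319) and Nr3c1 (309) followed, and then Sgk1 (178), Tsc22d3 (149), Errfi1 (140) and Nr3c2 (123). The lowest were Cdkn1a (74.8), Pdk4 (53.8) and Fkbp5 (49.4), the last above 26.8% of genes. On this scale, a level and not a difference, the glucocorticoid receptor's transcript lay above that of the mineralocorticoid receptor. Exon lengths were taken over all GENCODE M21 transcripts of a gene, which lowers the value of a gene with many transcript forms, and no error over libraries can be given for these levels.

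Other genes of the pathway were read from lists chosen by function. Of 19 further glucocorticoid-induced genes, 14 had an adjusted p and none passed 0.05. Of the 14, 11 were positive and 3 negative, and the median log2 fold change was 0.11. At an unadjusted p under 0.05 there were 3, all positive, by the Wald test of DESeq2. Ddit4, an inhibitor of mTOR signalling, had a log2 fold change of 0.29 ± 0.11 (SE) and an adjusted p of 0.339 in the authors' deposited table. Plin4, which coats lipid droplets, had 0.64 ± 0.25 (SE) and an adjusted p of 0.359 in the authors' deposited table. Klf15, a Krüppel-like transcription factor, had 0.22 ± 0.11 (SE) and an adjusted p of 0.629 in the authors' deposited table. Together with the 8 induced members, 17 of 22 genes were positive, and all 6 with an unadjusted p under 0.05 were positive. Over all genes, 49.4% were positive, and 8.1% had such a p, 4.56% on the positive side. The lists were chosen with earlier results known and their genes share the libraries, so these counts are a description. Of the 5 listed genes without an adjusted p, Lcn2, Cebpd and Angptl4 were negative, and Map3k6 and Mt2 positive. Dusp1 and Nfkbia, which encode a MAP kinase phosphatase and the inhibitor of NF-kappaB, stood at 0.01 and 0.08 on the log2 scale in the authors' deposited table and are named after their values had been seen. The positive sign was thus shared by most but not all of the induced genes.

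Among genes for proteins that hold or assist the receptors, the list medians were close to 0. Of 10 receptor chaperones, 6 were positive and 4 negative, and the median log2 fold change was 0.02. None had an unadjusted p under 0.05. Ptges3, which encodes the co-chaperone p23, had the largest difference, 0.17 ± 0.10 (SE) and an adjusted p of 0.796 in the authors' deposited table. Fkbp4, whose product FKBP52 competes with that of Fkbp5 for the receptor complex, had 0.06 ± 0.07 (SE) in the authors' deposited table. Of 10 coregulators, 7 were positive and 3 negative, with a median of 0.05. Crebbp, a histone acetyltransferase, was the only coregulator at an unadjusted p under 0.05, with a log2 fold change of 0.15 ± 0.07 (SE) and an adjusted p of 0.513 in the authors' deposited table. Over all genes, 49.4% were positive and 8.1% had an unadjusted p under 0.05 by the Wald test, so 1 of 10 is near that share.

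Genes for steroid supply and stress peptides gave no shared sign. Of 9 listed, 6 had an adjusted p, of which 2 were positive and 4 negative, and the median log2 fold change was -0.07. None had an unadjusted p under 0.05. Crh, which encodes a stress peptide, had the largest difference, -0.44 ± 0.25 (SE) and an adjusted p of 0.772 in the authors' deposited table. The mean normalized count of Crh was low there, at 51.6. Hsd11b1, whose enzyme regenerates active glucocorticoid inside cells, had 0.0076 ± 0.20 (SE) in the authors' deposited table. The steroid receptors Pgr and Esr1 stood at 0.10 and 0.13 on the log2 scale in the authors' deposited table, with no unadjusted p under 0.05. Of 10 family relatives of the induced genes, 9 had an adjusted p, 5 positive and 4 negative, with a median of 0.09. The largest difference among these 9 was that of Cdkn1c, -0.30 ± 0.17 (SE) and an adjusted p of 0.756 in the authors' deposited table. The tenth relative, Sgk2, had a mean normalized count of 9.93, under the filter, with a log2 fold change of 1.37 ± 0.64 (SE) and an unadjusted p of 0.0318 in the authors' deposited table.

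Per1 also belongs to the circadian clock and to the genes that neuronal activity induces. Of 12 other clock genes, 4 were positive and 8 negative, and the median log2 fold change was -0.04. None had an unadjusted p under 0.05, and the largest difference was that of Npas2, at -0.14 in the authors' deposited table. Its closest relatives Per2 and Per3 had 0.02 ± 0.09 (SE) and -0.12 ± 0.08 (SE) in the authors' deposited table. Of 9 activity-induced genes, of which Dusp1 is also on the list of induced genes, 8 were positive, with a median of 0.08. By the Wald test, 2 had an unadjusted p under 0.05, where 8.1% of all genes did. The largest difference was that of Fos, 0.73 ± 0.26 (SE) and an adjusted p of 0.257 in the authors' deposited table. Several of the positive activity-induced genes lay within their error of 0, among them Arc (0.0017 ± 0.35 SE), Fosb (0.03 ± 0.16 SE) and Nr4a1 (0.08 ± 0.10 SE). Signs of values so close to 0 say little, and the difference between Per1 and either list was not tested.

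Cell type markers had differences of their own, and fewer cells of a type and less RNA per cell cannot be told apart in bulk tissue. All 10 oligodendrocyte markers, with mean normalized counts from 177 to 12290, were positive, with log2 fold changes from 0.95 to 1.67 and a median of 1.28. None passed an adjusted p of 0.05, and all 10 had an unadjusted p under 0.05 by the Wald test of DESeq2. The share of all genes under that unadjusted threshold was 8.1%. The 10 markers had large standard errors, from 0.44 (Cnp) to 0.60 (Opalin), and share their libraries, so their count is a description. Of 8 endothelial and mural markers, 7 were negative and 1 positive, with a median of -0.16, and 3 had an unadjusted p under 0.05, all negative. Of 7 astrocyte markers, 2 were positive and 5 negative, with a median of -0.05, and 2 had an unadjusted p under 0.05, both negative. Of 4 excitatory neuron markers, 2 were positive and 2 negative, with a median of -0.0071. Camk2a passed on the negative side, at -0.29 with an adjusted p of 0.00151 in the authors' deposited table, and Tbr1 was positive, at 0.22 with an unadjusted p of 0.00208 there. The largest differences in the first 3 lists were those of Mobp (1.67 ± 0.49 SE), Tek (-0.27 ± 0.12 SE) and Gfap (0.56 ± 0.43 SE), in the authors' deposited table. The part of cell type composition in the differences of Tsc22d3, Per1, Zbtb16 and the other induced genes was not tested.

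**Figure D4:**
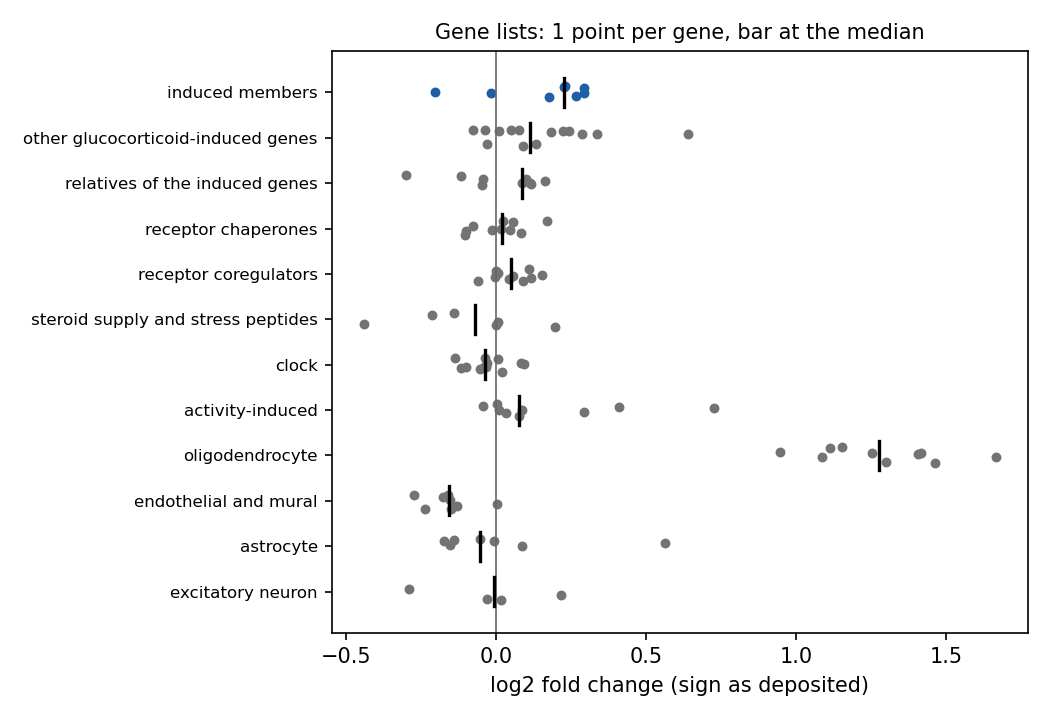
Each point is the log2 fold change of a gene with an adjusted p, with the sign as deposited, in rows by gene list, and the black bar is the list's median. The induced members cluster near their median of 0.23 apart from Cdkn1a and Errfi1, and the oligodendrocyte markers lie between 0.95 and 1.67.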

How the data were processed

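Libraries were made from 100 ng of RNA with a poly(A)-selecting kit, per the labels' protocols. The submitters' processing notes name Trimmomatic, Subread, DESeq2 and the build mm10, without versions or roles. The annotation and strand setting are not given in the sources used here. The authors deposited 1 table with, per the file headers, a mean normalized count (a signal averaged over libraries), a log2 fold change with its standard error on the log2 scale, a Wald score and unadjusted and adjusted p-values. The score equalled the fold change over its error within 1e-06 in all 17732 genes. Outside the alternatives, p-values are those of the authors' DESeq2 table, in which 13060 genes have an adjusted p.

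Intervals (95%) assume a normal distribution with the deposited standard error. Exon lengths, positions and overlaps came from GENCODE M21 (GRCm38), which held 17726 of the IDs. Computation used Python 3.11.15, pandas 2.3.3 and scipy 1.17.1, and functions were tested on simulated data. Members and lists were chosen with earlier results of these data known, and the lists of family relatives and further steroid receptors were added later. Named were all members, the genes of the pathway lists with an unadjusted p under 0.05 or otherwise the largest absolute change, the gene with the largest absolute change of each marker list, and a few others by function. Alternatives were another threshold, other adjustments, other filters on the mean count and a null of a 1.2-fold change. P-values set each difference against an error estimated from these libraries, whose spread may be technical. A few genes of the planned lists are not reported here.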

Additional observations from a re-analysis of the deposited data

How the results depend on the processing

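No paired analysis was possible because single libraries have no values in the files used. Planned fits with another normalization or with a library left out were therefore not run, and whether 1 library decides a value was not tested. The count of 67 genes called over the whole table became 101 at a threshold of 0.1, 21 with a Bonferroni adjustment and 2 against a null of at most a 1.2-fold change, which are looser or stricter by construction. It was 60 with no filter on the mean count and 68 at a mean count of at least 100. The adjusted p of the 10 members stayed above 0.05 in all 40 alternatives run, the lowest being 0.288 for Tsc22d3 at a mean count of at least 100. For the members, Bonferroni and the 1.2-fold null are stricter than the main test, so they could not have brought any under 0.05. Only the alternatives with another filter on the mean count could have changed a call. The median log2 fold change of the induced genes, 0.23, was 0.23 without any single one of them and 0.18 with the other induced genes included, an alternative chosen after seeing the data. Leaving out a gene can only move the median to a neighbouring middle value, here that of Fkbp5 or Per1. The result without single genes was thus largely fixed in advance.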
